A study of Mus musculus with 3 samples.

Results

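The Rbfox, Nova and Elavl families encode RNA-binding proteins of the nervous system that govern alternative splicing and mRNA stability, and 8 of their genes were followed here: A2bp1 (the older symbol of Rbfox1), Rbm9 (Rbfox2), Nova1, Nova2, Elavl1, Elavl2, Elavl3 and Elavl4. They were taken by symbol from a deposited table of gene levels, each symbol occurred in 1 row, and they are 8 of 26556 genes analysed. The cells were mouse CAD cells, a catecholaminergic neuroblastoma line, lipid-transfected with siRNAs and harvested after 72 h for sequencing of poly(A)+ RNA. The groups were control siRNA, siRNA against Ptbp1, and siRNAs against Ptbp1 and Ptbp2 together, all in unmodified CAD cells with no further allele or agent given, and each group was 1 library. The series concerned neuronal mRNA levels that depend on regulated intron retention. The values here are totals per gene, so they do not separate spliced from unspliced or alternatively spliced transcripts.

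Rbfox proteins bind the hexamer TGCATG (with U for T in RNA) beside exons, where binding downstream of an exon commonly promotes its inclusion, and they regulate exons of their own transcripts. Nova proteins bind clusters of short pyrimidine-CA-pyrimidine elements and shape the splicing of synaptic transcripts. Elavl proteins bind U-rich and AU-rich stretches. Elavl1 (HuR) is made in most cells, whereas Elavl2 (HuB), Elavl3 (HuC) and Elavl4 (HuD) are markers of neurons. Ptbp1 and its neural paralogue Ptbp2 bind pyrimidine-rich RNA such as CTCTCT upstream of exons and mostly repress splicing.

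The families share coding sequence, so the runs that paralogues have in common were read from the mm9 genome and are shown first. The longest identical run between A2bp1 and Rbm9 exons lies in an exon of 93 bases. Its last 27 bases are identical in A2bp1 (chr16:7292278-7292370, plus strand) and Rbm9 (chr15:76936007-76936099, minus strand). In the lines below the identical run is in capitals.
A2bp1: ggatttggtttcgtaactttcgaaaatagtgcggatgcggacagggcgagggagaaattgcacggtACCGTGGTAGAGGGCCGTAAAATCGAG
Rbm9: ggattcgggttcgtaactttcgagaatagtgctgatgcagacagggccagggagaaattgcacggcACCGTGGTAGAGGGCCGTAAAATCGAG
These exons were identical at 86 of 93 positions (92.5%). The longest run shared by any 2 members was 29 bases, between Elavl3 (chr9:21823044-21823072, minus strand) and Elavl4 (chr4:109879034-109879062, minus strand), and it is given whole.
Elavl3 and Elavl4: TTCGGCTTCGTCACCATGACCAACTACGA
Elavl2 and Elavl4 shared at most 23 bases, Elavl1 and Elavl4 20, Elavl1 and Elavl2 19, and Nova1 and Nova2 15. All these runs are shorter than the 36-base reads. No 36-base window of annotated exon was shared between any pair within a family, and between 0% (Nova1, Elavl2 and Elavl4) and 1.07% (Elavl3) of a member's exon windows occurred a second time anywhere in the genome. Reads across splice junctions were not checked: the 27-base run of A2bp1 and Rbm9 ends at the exon end in both genes. How many mismatches the authors allowed is not known here.

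The intron that follows this Rbfox exon holds the Rbfox element at the splice junction in both genes. The first 100 intron bases, with TGCATG in capitals, are these for A2bp1 (chr16:7292371-7292470, plus strand) and Rbm9 (chr15:76935907-76936006, minus strand).
A2bp1, after the exon of 93 bases: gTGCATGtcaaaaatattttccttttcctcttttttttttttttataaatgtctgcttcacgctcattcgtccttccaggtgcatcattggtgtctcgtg
Rbm9, after the exon of 93 bases: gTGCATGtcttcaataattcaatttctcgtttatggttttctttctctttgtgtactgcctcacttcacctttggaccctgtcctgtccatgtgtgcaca
The hexamer begins 1 base after the exon in each. Over all introns of at least 200 bases in protein-coding genes, searched on the gene's own strand, 4.06% of 169302 such windows after an exon hold TGCATG. Exons of all annotated transcripts of a gene were merged first, so a window can border a merged exon where there is no splice site. In A2bp1 the hexamer was found in 3 of 16 windows and in Rbm9 in 2 of 16, while none of the 46 windows of the 6 Nova and Elavl genes held it. A counted Rbm9 window does not begin with the GT of a splice site. The TGCATG matches describe the sequence, and whether they are bound or have a part in the levels was not tested.

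The pyrimidine motif CTCTCT was looked for in the last 100 intron bases before each merged exon, again on the gene's own strand, because Ptbp1 was targeted by siRNA. It occurred in 10.3% of these windows over all protein-coding genes and in 13 of 78 windows (16.7%) of the members. By gene these were 4 of 16 in A2bp1, 3 of 13 in Elavl2, 2 of 5 in Elavl1 and 2 of 15 in Elavl4. Nova1 had 1 of 4 and Rbm9 1 of 16. A counted Elavl4 window does not end with the AG of a splice site. The 2 windows below hold it next to A2bp1 exons (chr16:7352925-7353024 and chr16:7375898-7375997, both plus strand), with the motif in capitals.
A2bp1, intron 11: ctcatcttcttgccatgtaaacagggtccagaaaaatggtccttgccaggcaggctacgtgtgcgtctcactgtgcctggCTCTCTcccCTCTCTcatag
A2bp1, intron 14: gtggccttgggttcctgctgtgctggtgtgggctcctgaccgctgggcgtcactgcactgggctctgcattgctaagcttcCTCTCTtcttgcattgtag
The exon of 65 bases after intron 14 (chr16:7375998-7376062) was the 1 of 67 member exons with CTCTCT in the window before it and TGCATG in the window after it, against 0.432% of 135256 exons of all genes. The longest stretch of the motif among the members lay in Elavl2 (chr4:91047313-91047412, minus strand), and Elavl4 also has a repeat-rich window (chr4:109899254-109899353, minus strand).
Elavl2, intron 2: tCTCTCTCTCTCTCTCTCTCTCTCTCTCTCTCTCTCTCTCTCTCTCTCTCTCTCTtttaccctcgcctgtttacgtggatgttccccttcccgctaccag
Elavl4, intron 9: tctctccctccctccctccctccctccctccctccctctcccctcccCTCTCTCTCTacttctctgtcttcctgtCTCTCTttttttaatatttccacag
Elavl3 and Nova2 had no CTCTCT in these windows (5 and 4 windows), which says only that these letters are absent from them. Whether any of the CTCTCT matches is bound or has a part in the levels was not tested.

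The 3 libraries held from 14242495 to 16899549 reads in gene clusters, and 1 CPM, a scaled count relative to library size, stood for 14.1 to 16.8 reads. With 1 library per group there is no replicate check and no p-value. Ratios carry exact 95% intervals that cover counting error only, which amplified reads without molecular identifiers may exceed, and no variation between cultures. A gene was called by size when log2(CPM + 1) differed by 1 or more in either direction, it reached 1 CPM and its interval excluded 1. Read and CPM values are given for control, Ptbp1 siRNA and both siRNAs, in this sequence throughout. Of the targeted genes, Ptbp1 had 7191, 1486 and 1516 reads and Ptbp2 784, 3044 and 633 reads. Ptbp2 RNA was thus above the control level in the Ptbp1 siRNA library alone. With both siRNAs its ratio to the control was 0.863 (95% interval 0.776 to 0.959), and it was not called lower. Of 16 markers of CAD cells and catecholaminergic neurons 15 reached 1 CPM, with sums of 6770, 6010 and 6800 CPM. Their log2(CPM + 1) differences from the control after both siRNAs lay above 0 for 7 and below 0 for 8, with a median of -0.02. None of them was called lower there and 2 were called higher. These were Dbh, the gene of the enzyme that makes noradrenaline (2153, 4743 and 4671 reads, 2.32-fold), and Phox2a, which encodes a homeodomain regulator of catecholaminergic neurons (1522, 1982 and 2940 reads, 2.06-fold). By contrast 6 of 11 markers of mature neurons reached 1 CPM, with summed levels of 368.6, 369.9 and 365.6 CPM. The level sum hides single differences: after both siRNAs 3 of these 6 lay above 0 and 3 below. They ranged from -0.40 to 0.74 with a median of 0.12, and none was called. Markers of astrocytes summed to 2.65, 1.67 and 1.42 CPM, those of oligodendrocytes and Schwann cells to 3.45, 6.68 and 5.25, those of skeletal muscle to 296, 229 and 197, those of fibroblasts to 14.8, 12.2 and 7.87, and those of blood and endothelium to 23.0, 17.4 and 12.1. The muscle sum was mostly Myh3, an embryonic myosin gene (4272, 3574 and 2568 reads), with Myod1 at 0, 2 and 1 reads. Of the fibroblast markers Col1a1 (122, 88 and 48 reads) was called lower after both siRNAs, and Col1a2 was at 0 reads in all 3 libraries. Pecam1, an endothelial gene, had 335, 259 and 161 reads and the blood gene Hba-a1 had 0, while the astrocyte gene Slc1a2 had 35, 23 and 19 and Slc1a3 had 0. The part of these markers in the results was not tested. In bulk RNA a change in the number of cells of a kind cannot be told apart from a change in RNA per cell.

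Levels of different genes were compared per length, by the deposited RPKM. In the control library Elavl1 was highest at 29.6 RPKM (95% Poisson interval 28.8 to 30.5), followed by Elavl4 at 23.8 (22.9 to 24.7), Elavl3 at 20.02 (19.3 to 20.7) and Rbm9 at 18.6 (17.8 to 19.3). A second tier held Nova2 at 7.85 (7.07 to 8.70), Elavl2 at 5.81 (5.44 to 6.20) and Nova1 at 4.80 RPKM (4.39 to 5.23). A2bp1 was last at 0.345 RPKM (0.244 to 0.473), below all but 3.41% of the genes that reached 1 CPM there. So the control cells already made 3 neuronal Elavl mRNAs, together 49.6 RPKM against 29.6 for Elavl1, and little A2bp1. In the Ptbp1 siRNA library the order was the same except that Elavl4 stood above Elavl1, and Elavl2 (6.88, 6.48 to 7.28) and Nova1 (6.19, 5.74 to 6.66) overlapped in counting error. After both siRNAs Elavl4 was again highest, and no neighbours in the order overlapped. The deposited Nova2 cluster spans 1934 exonic bases and ends at chr7:19544149, while the mm9 annotation gives the gene 9014, most of them beyond that end, so its RPKM describes the upstream part. The A2bp1 cluster starts at chr16:5885091, before the annotated start at position 6809315, and has a length of 4563 bases, of which the annotation accounts for 3270 exon bases within its span. For Nova1 the span holds 3538 of 7000 annotated exon bases. The Elavl3 cluster has a length of 6700 bases against 4837 annotated exon bases in its span. For Elavl2 these are 6527 and 5454, for Elavl4 4639 and 5372, for Rbm9 5515 and 5798, and for Elavl1 6030 in both. Levels per length, the order of the genes and the family shares depend on those gene models. Ratios between libraries use the same cluster in each.

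**Figure D1:**
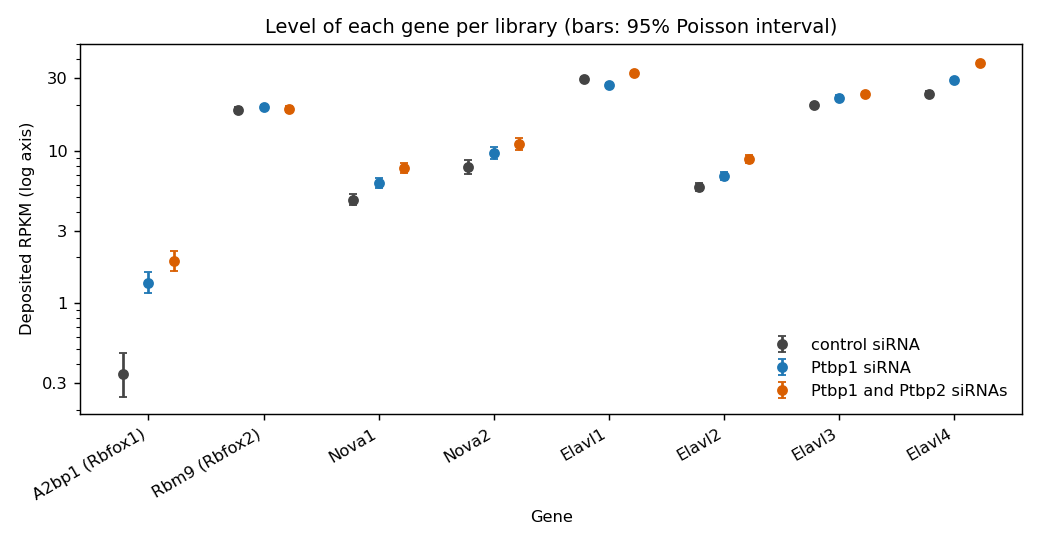
Deposited RPKM (log axis) of the 8 genes in the 3 libraries, 1 point per library with its 95% Poisson interval, which covers counting error only. A2bp1 goes from 0.345 to 1.90 RPKM and remains the lowest of the 8, while Rbm9 stays between 18.6 and 19.4. RPKM keeps the authors' scaling between libraries, which differs from that of the ratios in the text.

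A2bp1 was higher in both knockdown libraries, and Rbm9 was level. A2bp1, which encodes the Rbfox1 splicing factor of neurons and muscle (chr16:5885091-7411611), had 38, 160 and 187 reads. This is 2.52, 9.55 and 13.3 CPM, lowest in the control and highest with both siRNAs. Its ratio to the control was 3.78 after Ptbp1 siRNA (95% interval 2.64 to 5.54) and 5.26 after both siRNAs (3.69 to 7.66). It was called higher in both comparisons, the 1 member of 8 that was, where 0.280% and 1.08% of all tested genes were called higher (37 of 13222 and 143 of 13240). No member was called lower, where 0.454% and 2.75% of genes were (60 and 364). With scaling by library totals these splits of higher and lower were 53 and 47, and 197 and 283. A larger positive difference than that of A2bp1 was seen for 2 of the 13222 tested genes after Ptbp1 siRNA, Ptbp2 being one of them, and for 1 of 13240 after both siRNAs. Between the knockdown libraries A2bp1 was 1.39-fold higher with both siRNAs (1.12 to 1.73), a step that did not reach the size for a call, with 4.54% of tested genes showing a larger one.

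Rbm9, the gene of the more widely made Rbfox2 (chr15:76910909-77137358), had 2475, 2750 and 2236 reads, or 164.3, 164.1 and 158.6 CPM. Its levels lay together in all 3 libraries. The ratio to control was 0.999 after Ptbp1 siRNA (0.946 to 1.05) and 0.965 after both (0.911 to 1.02), and the sign of these differences depended on the scaling (-0.00 to 0.07 and -0.05 to 0.02 across the settings tried). The A2bp1 share of the summed Rbfox RPKM was 1.82% in the control, 6.55% after Ptbp1 siRNA and 9.16% after both, so Rbm9 still supplied 90.6% or more. The ratio of A2bp1 to Rbm9 reads, which no scaling between libraries affects, was 3.79 times the control ratio after Ptbp1 siRNA (2.63 to 5.57) and 5.45 times after both (3.81 to 7.97). The third family member Rbfox3, the NeuN antigen of mature neurons, listed as D11Bwg0517e, had 3, 6 and 5 reads, under 1 CPM in each library and too few for a comparison.

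Nova1 and Nova2, whose products regulate synaptic splicing, were both moderately higher in the knockdown libraries. Nova1 (chr12:47798960-47919756) had 516, 706 and 743 reads, or 34.2, 42.1 and 52.7 CPM. It was lowest in the control, 1.23-fold higher after Ptbp1 siRNA (1.10 to 1.38), 1.54-fold higher after both (1.37 to 1.73) and 1.25-fold higher with both siRNAs than with Ptbp1 siRNA (1.13 to 1.39). Nova2 (chr7:19510698-19544149) had 367, 481 and 464 reads, or 24.4, 28.7 and 32.9 CPM. It was 1.18-fold (1.03 to 1.35) and 1.35-fold higher (1.18 to 1.55) than the control. Neither gene was called by size. The balance within the pair differed by less than counting error, the ratio of Nova1 to Nova2 after both siRNAs being 1.14 times that in the control (0.950 to 1.36). Nova1 supplied 37.9%, 38.9% and 41.0% of the summed Nova RPKM.

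**Figure D2:**
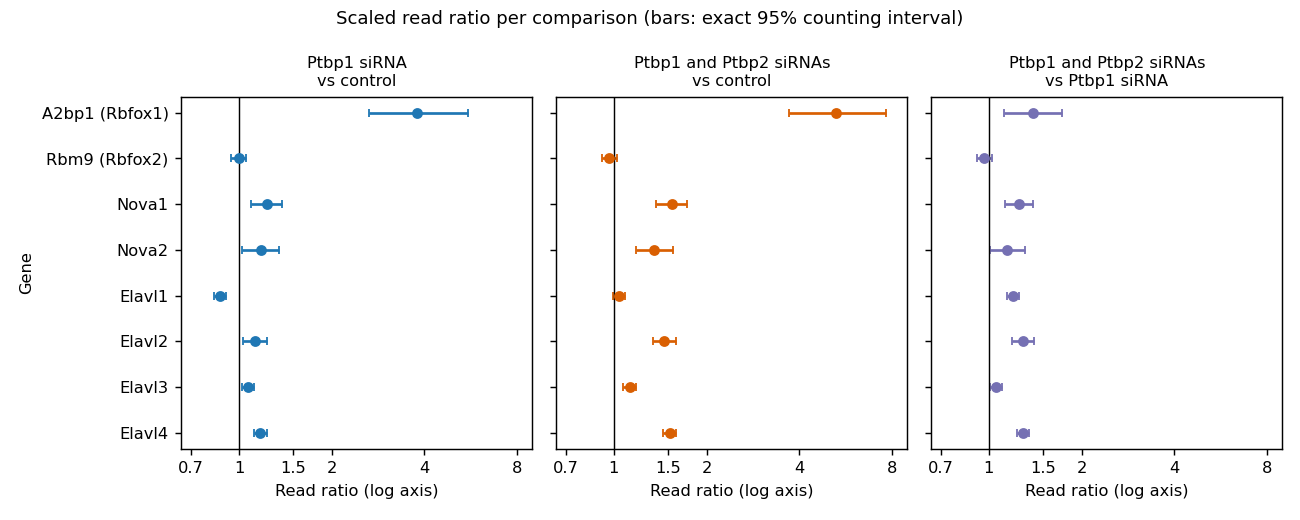
Scaled read ratio (log axis) of each gene in the 3 comparisons, with exact 95% counting intervals; the vertical line marks a ratio of 1. A2bp1 stands at 3.78 and 5.26 against the control, Nova1, Elavl2 and Elavl4 lie between 1.46 and 1.54 after both siRNAs, and Rbm9 straddles 1 in every panel.

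The 4 Elavl genes differed in size and sign. Elavl4, which encodes HuD, a stabiliser of neuronal mRNAs (chr4:109876342-110024514), had 2668, 3484 and 3789 reads, or 177.1, 207.8 and 268.8 CPM. It was 1.17-fold higher than the control after Ptbp1 siRNA (1.12 to 1.23), 1.52-fold higher after both (1.44 to 1.60) and 1.29-fold higher with both siRNAs than with Ptbp1 siRNA (1.23 to 1.35). Elavl2, which encodes HuB (chr4:90917457-91066675), had 916, 1151 and 1250 reads, or 60.8, 68.7 and 88.7 CPM, with ratios of 1.13 (1.03 to 1.23), 1.46 (1.34 to 1.59) and 1.29 (1.19 to 1.40). Both were lowest in the control library and highest with both siRNAs. The ratio of Elavl4 to Elavl2 differed by less than counting error, at 1.04 times that in the control both after Ptbp1 siRNA (0.939 to 1.15) and after both siRNAs (0.942 to 1.15).

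Elavl3, the gene of HuC, an early marker of neuronal commitment (chr9:21819626-21856454), had 3241, 3854 and 3414 reads, or 215.1, 229.9 and 242.2 CPM. Its ratios were smaller, 1.07 after Ptbp1 siRNA (1.02 to 1.12), 1.13 after both (1.07 to 1.18) and 1.05 between the knockdowns (1.01 to 1.10). Relative to Elavl3, Elavl4 was 1.35 times its control ratio after both siRNAs (1.26 to 1.45). Elavl3 went from 40.3% to 33.6% of the summed RPKM of the 3 neuronal Elavl genes, and Elavl4 from 48.0% to 53.8%.

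Elavl1, the ubiquitous HuR gene (chr8:4284782-4325100), had 4318, 4169 and 4200 reads, or 286.6, 248.7 and 297.9 CPM, lowest in the Ptbp1 siRNA library. It was 1.15-fold lower there than in the control (1.10 to 1.20), the 1 member with an interval below 1, as for 26.4% of genes, and after both siRNAs its ratio to the control was 1.04 (0.996 to 1.08). Between the knockdown libraries it was 1.20-fold higher with both siRNAs (1.15 to 1.25). By the deposited lengths, Elavl4 stood at 0.803 of Elavl1 in the control, at 1.09 after Ptbp1 siRNA and at 1.17 after both. Whether the order of the pair turned depends on the Elavl4 length, 4639 bases deposited against 5372 annotated exon bases in its span. The change of the ratio between libraries does not depend on length. Elavl4 over Elavl1 was 1.35 times the control ratio after Ptbp1 siRNA (1.27 to 1.45) and 1.46 times after both (1.37 to 1.56). For Elavl2 over Elavl1 the same quantities were 1.30 (1.18 to 1.44) and 1.40 (1.27 to 1.55). The 3 neuronal Elavl genes summed to 49.6, 58.6 and 70.4 RPKM, and Elavl1 was 37.4% of the whole family in the control and 31.5% in both knockdown libraries. RPKM keeps the authors' scaling between libraries, which differs from that of the CPM values and ratios, so sums of RPKM are not to be read as those ratios. The shares within a library are not affected.

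**Figure D3:**
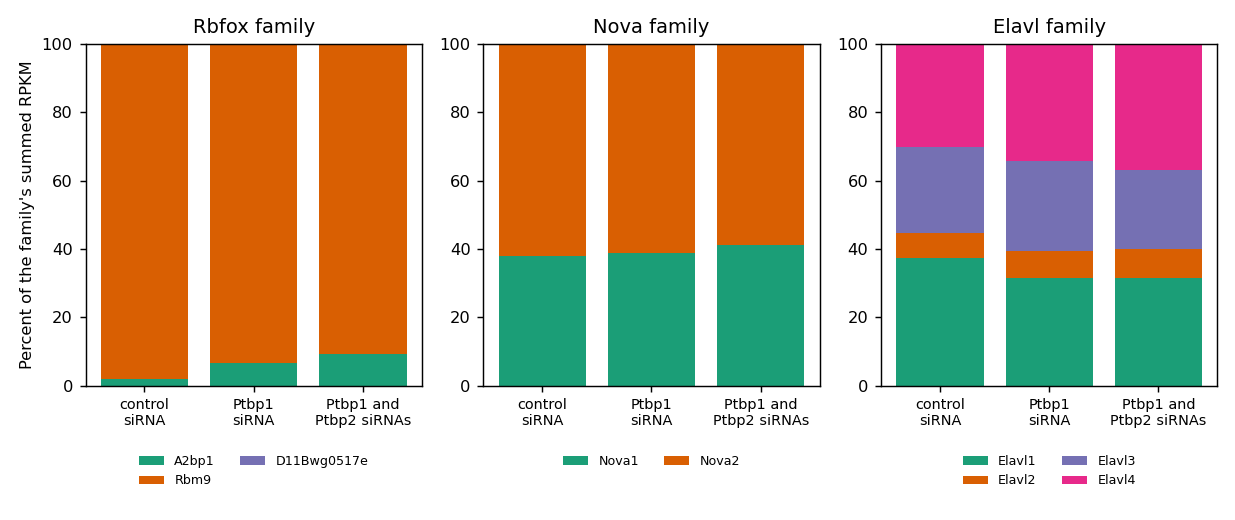
Stacked bars of each gene's percent of its family's summed RPKM in the 3 libraries, 1 library per bar, with no error drawn. A2bp1 goes from 1.82% to 9.16% of the Rbfox sum, Elavl4 from 30.03% to 36.9% of the Elavl sum, and Nova1 from 37.9% to 41.0% of the Nova sum; D11Bwg0517e (Rbfox3) is too small to see.

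Against all genes, the members lay on the upper side. In the Ptbp1 siRNA library the median of their log2(CPM + 1) differences from the control stood at 0.20. The library given both siRNAs had a median of 0.48. Over all genes tested the value was -0.01 in each comparison. Leaving out A2bp1 gave member medians of 0.17 and 0.42. After both siRNAs 4 of 8 members (A2bp1, Nova1, Elavl4 and Elavl2) had a difference of at least 0.5, as did 10.2% of all tested genes. After Ptbp1 siRNA A2bp1 alone had one, against 4.64%, and between the knockdowns no member did, against 3.02%. Counting intervals lay above 1 for 6 of 8 members in each comparison with the control, and for 21.0% and 28.9% of all tested genes. An interval narrows with more reads, and the tested genes reach down to 1 CPM, where most members had far more. All shares by interval given here therefore depend on depth as well as on the size of a difference. No interval lay below 1 after both siRNAs, where 32.3% of genes had one. Single members other than A2bp1 were not extreme: 6.55% of genes had a larger difference than Nova1 after both siRNAs, 6.79% than Elavl4, 8.96% than Elavl2, 13.8% than Nova2 and 32.01% than Elavl3. Between the 2 knockdown libraries 7 of 8 members had intervals above 1, against 22.3% of genes, and none below 1, against 22.5%. None was called by size there, where 0.105% were called higher and 0.339% lower. In 6 of 8 the control level was lowest and that with both siRNAs highest, an order seen in 27.2% of 13376 genes. These comparisons share libraries, so their results are not independent of each other.

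**Figure D4:**
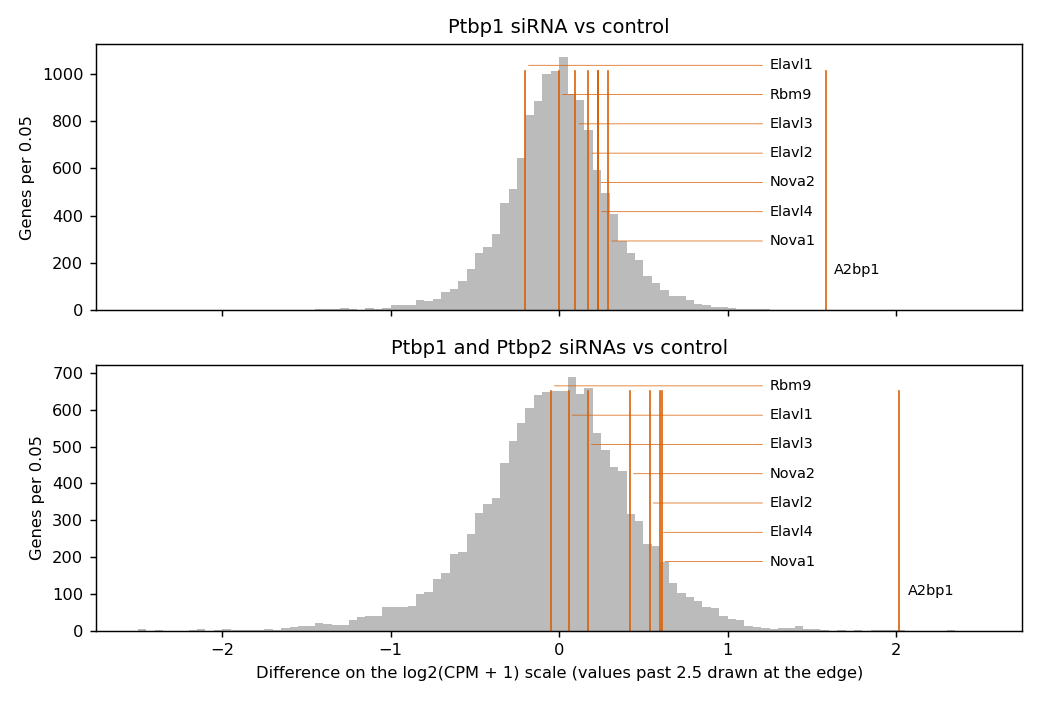
Histograms of the difference on the log2(CPM + 1) scale for the 13376 genes with at least 1 CPM in any library, in bins of 0.05, for both comparisons with the control. Orange lines mark the 8 genes: A2bp1 lies far to the right at 1.58 and 2.02, and the others lie within the body of the distribution, more of them to its right after both siRNAs.

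The genes nearest to a member in both differences from the control were found by Euclidean distance over these 2 differences, from 3 libraries, among 10110 other genes with an established symbol and at least 50 reads in all. A2bp1 had no gene within 0.25. The 4 nearest were Shbg, the sex hormone binding globulin gene, at a distance of 0.53, Lrrc55, a potassium channel subunit gene, at 0.57, Hrh3, a histamine receptor gene, at 0.60, and H2-DMa, an antigen presentation gene, at 0.65. Nova1 had 192 genes within 0.1, the nearest being Aatf, Ube2e1, Apba1 and Atg3, and Elavl4 had 174, the nearest being Exosc9, Rbm15b, Snx16 and Ppid. By these distances the pattern of Nova1 and Elavl4 was a common one among the genes compared and that of A2bp1 was not. The distances include no counting error, and both differences of A2bp1 rest on the same 38 control reads.

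Other RNA-binding genes of neurons gave these values. Of 10 tested genes of a further list of neuron-enriched RNA-binding proteins, none was called after both siRNAs and 6 lay above 0, with a median of 0.06. Celf5, a splicing regulator of the CUG-binding family, was highest at 0.93 (299, 477 and 547 reads), 1.95-fold above the control (1.69 to 2.26). Celf3 was at 0.43, while Mbnl2, a muscleblind splicing factor, was at -0.43 and Celf6 at -0.34. After Ptbp1 siRNA, Ptbp2, itself on that list, was the 1 called gene at 1.78. Among the 8 partners of Rbfox proteins in their nuclear complex none was called in any comparison, and after both siRNAs the median was 0.12, from -0.27 for Hnrnpul2 to 0.31 for Ilf2, with Matr3 at 0.24 and Hnrnpm at 0.23.

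Proteins that bind AU-rich elements beside the Elavl family were mixed. Of 7 tested genes 1 was called after both siRNAs: Hnrnpd, whose product AUF1 often promotes mRNA decay, had 1572, 2378 and 3266 reads and was 2.22-fold higher than the control (2.09 to 2.36). Zfp36, the gene of the decay factor tristetraprolin, had 227, 244 and 125 reads and was at -0.70. Celf1 and Tia1 were at 0.28 and 0.26, and the list's median was 0.06.

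Of 22 mRNAs known to be bound by Elavl proteins, all were tested, and after both siRNAs 12 lay above 0 and 10 below, with a median of 0.15. Myc, the growth-promoting transcription factor gene, was called higher (893, 1133 and 1867 reads, 2.23-fold, 2.06 to 2.42), and Slc2a1, a glucose transporter gene, lower (3840, 3168 and 1571 reads, 2.29-fold, 2.16 to 2.43). Vegfa, the angiogenic growth factor gene, was at -0.90 and Ccnb1, a mitotic cyclin gene, at 0.77. Gap43, a growth cone gene and a classical HuD target, was not among the 4 largest but lay close at 0.75. After Ptbp1 siRNA none of the 22 was called, with a median of 0.01.

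Genes with exons regulated by Rbfox or Nova proteins were not higher as groups in total level, which does not measure those exons. Of 13 genes with Rbfox-regulated exons none was called after both siRNAs, 4 lay above 0, and the median was -0.12, with Fn1, the fibronectin gene, at -0.55, Mef2a at -0.43, Grin1, an NMDA receptor subunit gene, at 0.40 on 44, 94 and 59 reads, and Vamp1 at -0.29. After Ptbp1 siRNA the 1 called was Ptbp2. Of 8 tested genes with Nova-regulated exons, 3 lay above 0 after both siRNAs and the median was -0.16. Agrn, the gene of the synapse organiser agrin, was called lower (3376, 2188 and 1337 reads, 2.36-fold, 2.22 to 2.52). Dab1, a gene of reelin signalling, was at 0.95 but on 1, 4 and 15 reads, a ratio of 16.0 with an interval from 2.47 to 675. Neo1 and Cacna1b were at -0.28 and -0.25.

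**Figure D5:**
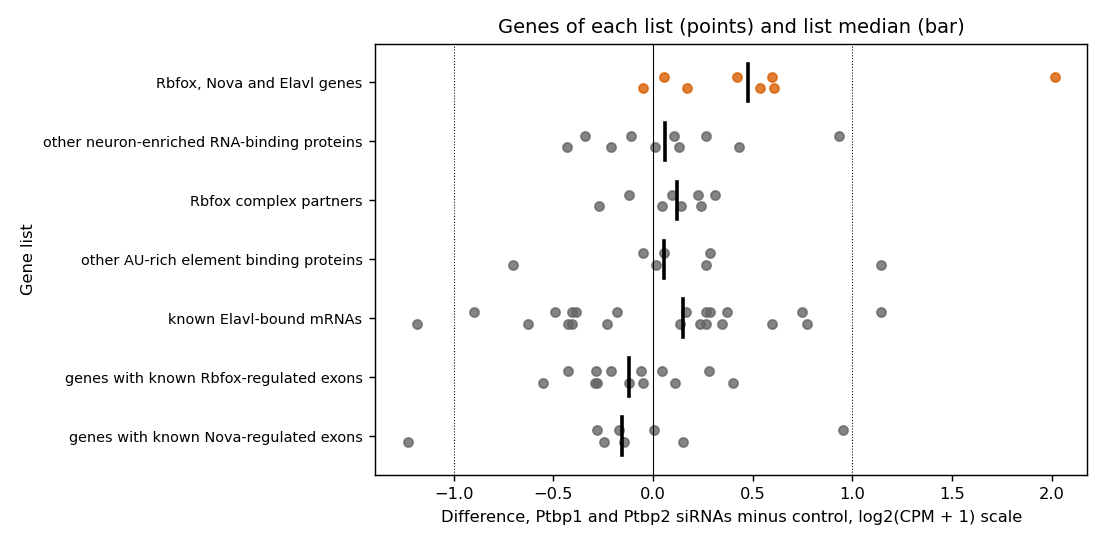
Difference between both siRNAs and control on the log2(CPM + 1) scale for each tested gene of 7 lists (points) with the list median (bar); dotted lines mark the size for a call. The Rbfox, Nova and Elavl genes have a median of 0.48, and the medians of the other lists lie between -0.16 and 0.15.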

How the data were processed

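Poly(A)+ RNA of 3 CAD cell cultures was sequenced as 36-base paired reads, and the labels' protocols describe no step that marks strand. The authors deposited net read values and RPKM for 27389 gene clusters per the file headers. The build, mm9, is from the submitters' processing notes. For aligner, counter and gene set the entry is: not given in the sources used here. Deposited read values are whole numbers, but 38 clusters hold one below 0. These and 127 without a length were left out, and the others were treated as counts, although values below 0 show that something was subtracted. Counting mates separately, if done, would make intervals too narrow. Starts matched the GENCODE vM1 annotation at offset 0 for 5584 genes and ends at offset 1 for 5510, so ends are printed 1 lower.

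Of clusters with 1 symbol the highest was kept, leaving 26556. Scaling used TMM (trim of 30% on M, 5% on A, factors 0.967, 1.02 and 1.02) in numpy 2.4.6, and differences taken with a pseudocount of 1 CPM. Intervals are Clopper-Pearson (conditional binomial), Poisson, or, for ratios between paralogues, exact conditional odds ratios (scipy 1.17.1). The calculation was tested on simulated data. Of 132 list entries, 130 were matched, 4 through RefSeq synonyms. Named were the members, the targeted genes, up to 4 genes per list other than marker lists with the largest difference after both siRNAs, genes called in those lists, the nearest 4 in pattern, and of marker lists those the description needed. Gap43 as an Elavl target was named beyond this rule after its value was seen. Members and lists were chosen with earlier results of these data known. Alternatives were other scalings, pseudocounts, filters, size limits and summed clusters. A marker gene and a sequence window are not reported here.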

Additional observations from a re-analysis of the deposited data

How the results depend on the processing

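The 8 members' signs were kept under every scaling and pseudocount tried except for Rbm9, and the 21 medians of the members under other settings moved by less than the members' median counting error. Of the medians of the lists and of all tested genes, 44 moved by more than that and 327 did not. Of the numbers called within lists, 43 moved by more than 1.5-fold and 379 did not. Of the single members' differences, 10 moved by more than their counting error, 1 lost its call and 157 were counted as the same. A2bp1 was not called after Ptbp1 siRNA with a pseudocount of 5 CPM (0 members, difference 0.95) or a 3-fold limit on the log2(CPM + 1) scale (0 members, difference 1.58, although its CPM ratio of 3.78 exceeds 3), and a 1.5-fold limit after both siRNAs called 3 members, A2bp1, Nova1 and Elavl4. Over all genes, in the order higher and lower, a pseudocount of 0.1 CPM gave 165 and 135 calls after Ptbp1 siRNA, 336 higher after both, and 82 and 167 between the knockdowns, while 5 CPM gave 4 and 26, 45 and 177, and 1 and 8. A 1.5-fold limit gave 396 and 458, 962 and 1334, and 242 and 469, and a 3-fold limit 2 and 7, 9 and 47, and 1 and 1. A filter of 5 CPM left 22 higher after Ptbp1 siRNA and 6 between the knockdowns, and the authors' RPKM total 6 higher between the knockdowns, where 14 and 45 were reported. Scaling by library totals made 53.0% of calls after Ptbp1 siRNA higher (53 and 47) in place of 38.1% (37 and 60), and 41.0% after both siRNAs (197 and 283) in place of 28.2% (143 and 364). No paired analysis was possible because each group holds 1 library, and for the same reason none could be left out. Depth limits A2bp1 most, which rests on 38 control reads.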
